A study of Mus musculus with 12 samples.

Results

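The livers of untreated male mice on a high-fat diet were compared with those of untreated male mice that stayed on chow, gene by gene. The comparison used the 6 arrays of the control mice, 3 on each diet, out of 12 arrays in the series, chosen by their sample titles. All mice were C57BL6J, a common inbred laboratory strain, and were 30 weeks old when the liver was taken. All began on a normal chow from Purina Mills with 13.5% of its energy as fat. The control high-fat mice were moved at 17 weeks of age to diet D12451, with 45% of its energy as fat, and the control chow mice stayed on chow. Neither control group drank antibiotic. The other 6 mice, 3 on each diet, drank penicillin at 6.7 mg/L from their water, and serve below as other animals on the same diets. Chow is a grain-based feed and D12451 a purified one, so the groups differ in more than fat, and the parts of the diet cannot be told apart.

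The liver burns dietary fat, packs it into droplets and lipoproteins, and makes fat from sugar when carbohydrate is plentiful. Nuclear receptors that bind fatty acids, bile acids and foreign compounds set much of this program, among them PPAR alpha, CAR and PXR. In mice the liver also differs between the sexes, because males secrete growth hormone in pulses and females more evenly, and a set of cytochromes P450 and transporters follows that pattern.

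Each mouse gave 1 Affymetrix 3′ expression array, and values are log2 expression on the authors' RMA scale, on which a difference of 1 is a doubling. The 3 arrays of a group are biological replicates per the labels. Array medians lay between 5.53 and 5.59 on chow and between 5.53 and 5.55 on high-fat diet. Arrays of 1 group correlated at 0.994 to 0.996 and arrays of different diets at 0.992 to 0.994. On the first principal component of all 12 arrays, which held 36.3% of the variance, the control chow arrays lay between -16.2 and -13.4 and the control high-fat arrays between 3.01 and 11.9. Hepatocyte markers, such as albumin, were bright on every array, with a mean log2 level of 13.68 to 13.87 on chow and 13.81 to 13.89 on high-fat diet. Of 13788 genes tested with limma, 124 passed a Benjamini-Hochberg adjusted p under 0.05, which is 0.899% of those tested. High-fat feeding raised 90 of them (0.653%) and lowered 34 (0.247%). The change was at least 1.5-fold in 85 and at least 2-fold in 38, of which 29 were higher and 9 lower. The smallest changes past the threshold were 0.37 upward and -0.36 downward. Across all genes tested the median change was -0.005, and 48.5% of genes were higher on high-fat diet. In all 124 genes the 3 high-fat arrays lay wholly above or below the 3 chow arrays, as they did in 22.8% of all genes tested (12.4% higher and 10.4% lower). In all, 2082 genes had an unadjusted p under 0.05, where 689.4 would be expected by chance.

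**Figure D1:**
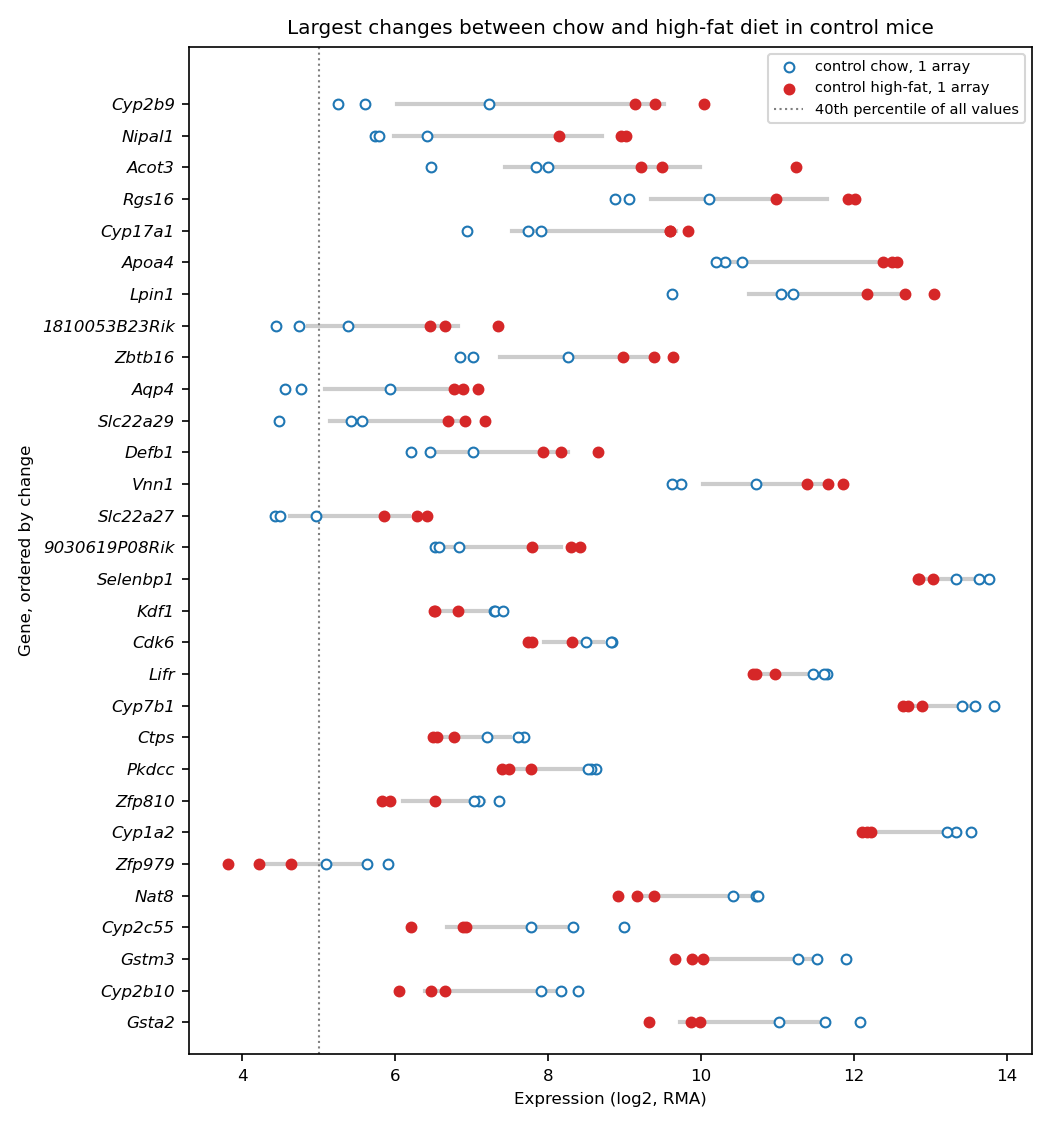
Log2 expression on each control array (open circles, chow; filled circles, high-fat diet) for the genes past the threshold that changed most, 15 upward and 15 downward, joined by a grey line between the group means. The dotted line at log2 5.0 is the floor of the filter. All chow arrays of Slc22a27 and all high-fat arrays of Zfp979 lie below it, as do some chow arrays of 1810053B23Rik, Aqp4 and Slc22a29.

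Genes that female mouse livers express more than male livers held 6 of the 15 largest increases. Of 16 tested members of the female-biased list, 7 rose, 0 fell and 9 did not pass, with a median change of 1.22 against -0.005 over all genes. The 7 were Cyp2b9, Nipal1, Acot3, Cyp17a1, Slc22a29, Slc22a27 and Hao2. In limma 12 of the 16 had an unadjusted p under 0.05, 10 higher and 2 lower, beside 2082 of all 13788 genes tested. The Acot3 probe set can read related thioesterases, so its place in these counts is uncertain. The gene lists share some members, so their counts are not separate. Acot3 is also in the thioesterase list, and Abcd2 and Cyp4a14 are also in the PPAR alpha list.
Cyp2b9, a female-predominant cytochrome P450, read 5.25, 7.23 and 5.60 in the 3 chow mice and 9.14, 9.40 and 10.03 in the 3 high-fat mice. The groups were far apart although chow mouse 2 stood above the other chow mice. The rise of 3.50 ± 0.51 (log2, ± standard error of the fit, n = 3 mice per group) was 11.3-fold, the largest of any gene past the threshold (adjusted p = 0.0127).
Cyp17a1, a steroid 17-hydroxylase and lyase, read 7.74, 7.91 and 6.94 on chow and 9.59, 9.59 and 9.84 on high-fat diet. Its groups did not overlap, and the rise of 2.14 ± 0.26 (4.41-fold) had an adjusted p of 0.00501.
Nipal1, which encodes a predicted magnesium transporter, lay between 5.74 and 6.42 on chow and between 8.14 and 9.02 on high-fat diet, a rise of 2.72 ± 0.42 (adjusted p = 0.0152). Another probe set for Nipal1 gave 2.82.
Slc22a27 and Slc22a29 are neighbouring genes of the organic anion transporter family. Slc22a27 read 4.43, 4.49 and 4.96 on chow, all below the floor of 5.0, and 6.29, 6.41 and 5.85 on high-fat diet (1.55 ± 0.17, adjusted p = 0.00334). Slc22a29 read 4.48, 5.42 and 5.57 on chow and 6.68, 7.18 and 6.91 on high-fat diet (1.77 ± 0.25, adjusted p = 0.00907). Both rest on probe sets whose names mark them as able to read related transcripts, so the 2 values may not be separate measurements. Hao2, a peroxisomal hydroxy acid oxidase, rose by 1.22 ± 0.15 from 4.86, 4.91 and 5.09 to 5.89, 6.08 and 6.53 (adjusted p = 0.00598). Values at the floor compress a fold change, so these 3 rises are read as direction and order of size.
Other members of the list did not pass. Abcd2, a peroxisomal transporter, differed by 1.71 ± 0.41 with groups that did not overlap but missed the threshold (adjusted p = 0.0768), and Fmo2 differed by 1.23 ± 0.30 (adjusted p = 0.0788). Cux2, a female-specific transcription factor, read 7.97 on chow and 7.94 on high-fat diet, and Prom1 and Cyp3a44 were nominally lower at -0.49 ± 0.19 and -0.56 ± 0.16.

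Of 16 tested male-biased genes, 1 fell, 0 rose and 15 did not pass, with a median change of -0.57 and 15 of 16 below 0. An unadjusted p under 0.05 in limma was found for 10 of the 16, all lower, beside 2082 of all 13788 genes tested. The gene that fell was Cyp7b1, the oxysterol 7-hydroxylase of the alternative bile acid pathway. It read 13.83, 13.58 and 13.41 on chow and 12.64, 12.88 and 12.71 on high-fat diet, 2 ranges with no overlap. The fall of -0.86 ± 0.11 (1.82-fold) had an adjusted p of 0.00598, and another Cyp7b1 probe set gave -0.98. Hsd3b5, a male-specific steroid dehydrogenase, read 13.01, 12.68 and 12.96 on chow and 12.33, 12.63 and 12.22 on high-fat diet. That difference of -0.49 ± 0.50 did not pass (adjusted p = 0.696), although the 2 ranges did not overlap. Its standard error comes from the spread pooled over all 4 groups, which is wider than that of the control mice alone. The complement gene C6 stood just outside the threshold at -0.70 ± 0.15 (adjusted p = 0.0504), and Cyp4a12a, a male-specific fatty acid hydroxylase, at -1.10 ± 0.28 (adjusted p = 0.0861). Both sex-biased lists were put together with results of these data known, so their counts are a description.

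The gene with the smallest adjusted p of all was Cyp1a2, a cytochrome P450 that oxidises caffeine and aromatic amines. It read 13.53, 13.34 and 13.21 on chow and 12.17, 12.22 and 12.10 on high-fat diet. The lowest chow mouse lay about 1 log2 unit above the highest high-fat mouse, and the fall of -1.19 ± 0.09 was 2.29-fold (adjusted p = 0.000213). Cyp1a1, which shares its regulation by the aryl hydrocarbon receptor, read 5.53 on chow and 5.34 on high-fat diet, and the receptor gene Ahr 9.72 and 9.68. Neither passed.
Of 31 tested drug-metabolising enzymes and their receptors, 3 fell, 0 rose and 28 did not pass. The median change was -0.20, and 24 of the 31 were below 0. In limma 15 of the 31 had an unadjusted p under 0.05, 12 lower and 3 higher, beside 2082 of all 13788 genes tested. Besides Cyp1a2, the members that fell were Cyp2b10 and Cyp2c55, both classed among genes that CAR and PXR activate.
Cyp2b10 read 8.17, 7.90 and 8.39 on chow and 6.46, 6.05 and 6.65 on high-fat diet. The fall of -1.77 ± 0.22 (3.40-fold) had an adjusted p of 0.00598, and other probe sets for Cyp2b10 gave -3.39 and -3.14.
Cyp2c55 fell by -1.68 ± 0.27 from 8.32, 7.77 and 8.99 to 6.93, 6.89 and 6.21 (adjusted p = 0.0219). Cyp2c29 (-0.47 ± 0.11, adjusted p = 0.0712) and Cyp3a11 (-0.42 ± 0.10, adjusted p = 0.0826) were lower in every high-fat mouse than in any chow mouse without passing. The receptor genes did not pass either: Nr1i2, which encodes PXR, differed by 0.45 ± 0.09 (adjusted p = 0.0508) and Nr1i3, which encodes CAR, by -0.15 ± 0.11.

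Cyp2b10 and Cyp2b9 belong to 1 gene cluster on chromosome 7 and moved in opposite directions in the same livers. They lie within 3 tested genes of each other. The 250 bases before each start site are shown to set these oppositely changed paralogs side by side (RefSeq, build GRCm38.p6, 5′ to 3′, with no motif marked in capitals).
Cyp2b10, chr7:25897408-25897657 (plus strand): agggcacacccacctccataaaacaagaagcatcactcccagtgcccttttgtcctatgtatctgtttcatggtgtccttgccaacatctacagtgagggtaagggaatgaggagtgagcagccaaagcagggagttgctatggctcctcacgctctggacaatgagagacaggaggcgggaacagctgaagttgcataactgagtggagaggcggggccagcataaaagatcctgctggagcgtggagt
Cyp2b9, chr7:26173159-26173408 (plus strand): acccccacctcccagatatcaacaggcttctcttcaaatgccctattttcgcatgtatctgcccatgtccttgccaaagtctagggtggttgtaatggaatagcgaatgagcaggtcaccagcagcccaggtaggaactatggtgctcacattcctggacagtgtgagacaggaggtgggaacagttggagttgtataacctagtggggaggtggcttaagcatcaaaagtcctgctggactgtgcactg
Over the 300-base windows that RefSeq's table gives, which run 50 bases past the start, these 2 were 71.7% identical (223 of 311 aligned columns). Of the motifs searched below, the Cyp2b10 window held the core GCGTG and the sterol element TCACNCCAC, and the Cyp2b9 window held none of those listed. The window of another member, Cyp2b13, was 99.33% identical to that of Cyp2b9. The Cyp2b13 probe set read 5.29, 5.36 and 5.27 on chow and 5.58, 5.05 and 5.38 on high-fat diet, close to the floor, a difference of 0.03 ± 0.27. Other neighbours past the threshold had changes of the same sign: Vnn3 (0.76) with Vnn1 (1.61), Fads2 (0.77) with Fads1 (0.65), and Aprt (-0.66) with Galns (-0.48). Acot4 with Acot3 and Slc22a27 with Slc22a29 also did, but the probe sets of Acot3 and both Slc22a genes may read related transcripts, so these pairs may not be separate measurements.

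Glutathione transferases join glutathione to reactive compounds. Of 26 tested NRF2 targets and glutathione transferases, 2 fell, 0 rose and 24 did not pass, with a median change of -0.07. An unadjusted p under 0.05 in limma was found for 10 of the 26, 8 lower and 2 higher, beside 2082 of all 13788 genes tested.
With 1 probe set per gene, the one with the highest mean, Gsta2 had the largest fall past the threshold. It read 11.62, 11.02 and 12.08 on chow and 9.99, 9.87 and 9.32 on high-fat diet, a change of -1.85 ± 0.24 (3.60-fold, adjusted p = 0.00637).
Gstm3 read 11.52, 11.27 and 11.89 on chow and 10.03, 9.89 and 9.65 on high-fat diet, a change of -1.71 ± 0.19 (adjusted p = 0.00423). Its probe set can read related transferases, and another Gstm3 probe set gave -1.11. In both genes the high-fat mice lay more than 1 log2 unit below the chow mice. Gstm2 (-0.67 ± 0.20, adjusted p = 0.137) and Ugdh (-0.63 ± 0.15, adjusted p = 0.0712) were lower without passing, and Nqo1, a standard NRF2 target, differed by -0.03 ± 0.12. Outside these lists, Nat8, an acetyltransferase of the endoplasmic reticulum, fell by -1.47 ± 0.16 (adjusted p = 0.00334), from between 10.42 and 10.74 to between 8.92 and 9.39.

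**Figure D2:**
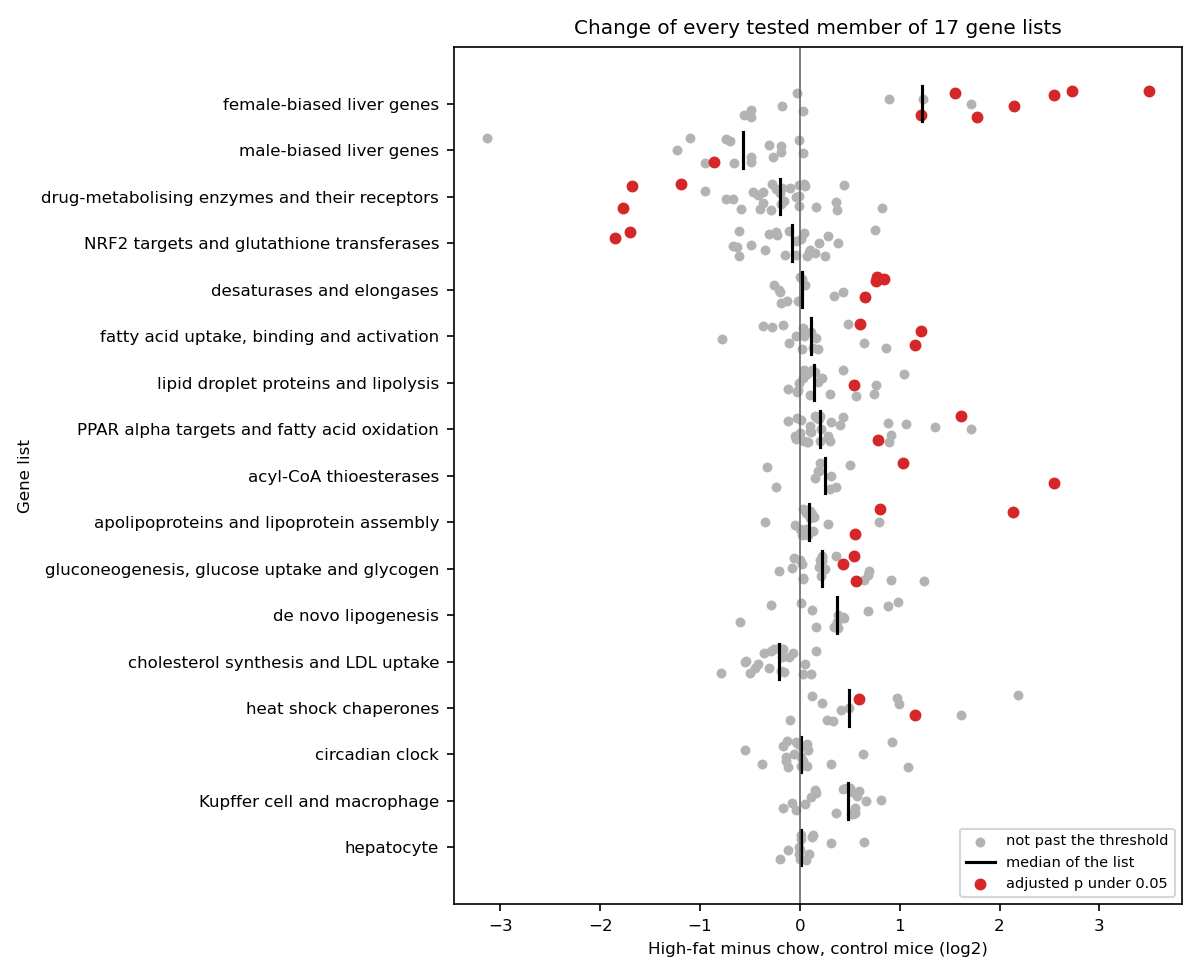
Change in control mice (high-fat minus chow, log2) of every tested member of 17 gene lists, 1 point per gene, with genes past the threshold as filled red points and the list median as a black bar. The female-biased list has its median at 1.22 and the male-biased list at -0.57, while the hepatocyte markers centre on 0.01.

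Genes that handle fatty acids rose in small numbers per list. Of 15 tested desaturases and elongases, 4 rose and 0 fell, with a list median of 0.02. The 4 were Fads1, Fads2, Elovl2 and Elovl5, the enzymes that turn dietary linoleic and linolenic acid into long polyunsaturated fatty acids.
Fads2, the delta-6 desaturase, read 11.12, 11.26 and 10.86 on chow and 11.71, 12.03 and 11.80 on high-fat diet (0.77 ± 0.15, adjusted p = 0.0449). Fads1, the delta-5 desaturase beside it on the chromosome, rose by 0.65 ± 0.11 (adjusted p = 0.0222), with 0.20 from another, dimmer probe set. Elovl5, the elongase between the desaturase steps, rose by 0.85 ± 0.15 (adjusted p = 0.0287), from between 12.74 and 12.91 to between 13.51 and 13.72. Its probe set may read related transcripts, and another gave 0.78. Elovl2, which elongates the longer products, rose by 0.76 ± 0.12 (adjusted p = 0.0156).
The enzymes of saturated and monounsaturated fat synthesis did not pass. Scd1, the main delta-9 desaturase of liver, differed by 0.35 ± 0.09 (adjusted p = 0.0841), while a dimmer Scd1 probe set, not among those tested, gave 0.95 ± 0.22. Elovl6 differed by 0.43 ± 0.35. Of 14 tested genes of de novo lipogenesis, 0 passed in limma and 5 had an unadjusted p under 0.05. Among all 13788 genes tested, 2082 did. Of the 14, 12 were above 0, and the median was 0.37. Their largest differences were in Me1 (0.98 ± 0.24, adjusted p = 0.0768), the malic enzyme that supplies NADPH, and Acacb (0.88 ± 0.23, adjusted p = 0.104), a form of acetyl-CoA carboxylase. Srebf1, which encodes the lipogenic transcription factor SREBP1, differed by -0.60 ± 0.28 with overlapping groups. It did not reach an unadjusted p under 0.05 in limma. Of 21 tested genes of cholesterol synthesis and LDL uptake, 0 passed, 1 had an unadjusted p under 0.05, 17 were below 0 and the median was -0.21.

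Among 19 tested genes of fatty acid uptake, binding and activation, 3 rose and 0 fell, with a median of 0.11. Fabp2, a fatty acid binding protein best known from intestine, read 11.16, 11.18 and 10.64 on chow and 12.29, 12.22 and 12.11 on high-fat diet (1.21 ± 0.16, adjusted p = 0.00759). Cd36, a fatty acid transporter, rose by 0.60 ± 0.11 (adjusted p = 0.0329) from 9.43, 9.52 and 9.36 to 10.09, 10.09 and 9.93. Vldlr, a lipoprotein receptor, rose by 1.15 ± 0.24 (adjusted p = 0.0497), with chow mice 1 and 2 below the floor. Its probe set may read related transcripts, and its other probe sets above the floor gave 0.49 and 0.43.
Lpin1, whose product makes diacylglycerol and also acts as a transcriptional coactivator, was the 1 gene that rose among 22 of glycerolipid and phospholipid synthesis. It read 11.20, 11.05 and 9.62 on chow and 12.67, 13.04 and 12.18 on high-fat diet (2.01 ± 0.38, 4.02-fold, adjusted p = 0.0383). Chow mouse 3 stood well below the other chow mice, and all high-fat mice were above all chow mice.
Of 20 lipid droplet and lipolysis genes, 1 rose, Mgll, the monoacylglycerol lipase (0.54 ± 0.11, adjusted p = 0.0498), whose other probe sets gave 0.08 to 0.71. The tested Mgll probe set may read related transcripts. Plin2, the main droplet coat protein of hepatocytes, read 13.12, 12.58 and 13.03 on chow and 12.88, 13.07 and 12.94 on high-fat diet, and the groups overlapped. Plin4 (1.05 ± 0.35, adjusted p = 0.175) and Cidec (0.76 ± 0.39, adjusted p = 0.39) did not pass.

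Lipoprotein genes gave 3 increases among 20 tested, with a median of 0.09. Apoa4, an apolipoprotein of triglyceride-rich particles, read 10.31, 10.54 and 10.19 on chow and 12.50, 12.38 and 12.57 on high-fat diet. The mice of each diet lay close together, and the rise was 2.14 ± 0.43 (4.40-fold, adjusted p = 0.0451). Its standard error comes from the spread pooled over all 4 groups, which is wider than that of the control mice alone. Its probe set may read related transcripts, and another gave 2.39. Apoc2, the cofactor of lipoprotein lipase, rose by 0.56 ± 0.10 (adjusted p = 0.0337), and Tm6sf2, which takes part in VLDL lipidation, by 0.80 ± 0.16 (adjusted p = 0.0449).
PPAR alpha is the receptor through which fatty acids switch on their own oxidation. Of 33 tested PPAR alpha targets and oxidation genes, 2 rose, 0 fell, and 29 were above 0, with a median of 0.20. In limma 15 of the 33 had an unadjusted p under 0.05, all of them higher, beside 2082 of all 13788 genes tested. Vnn1, a pantetheinase and a sensitive PPAR alpha target, read 9.74, 9.62 and 10.72 on chow and 11.39, 11.66 and 11.86 on high-fat diet (1.61 ± 0.27, adjusted p = 0.023). Txnip, a thioredoxin-binding protein, rose by 0.79 ± 0.14 (adjusted p = 0.027). Cpt1a, the gate of mitochondrial fatty acid import, differed by 0.18 ± 0.11, Pdk4 by 0.91 ± 0.41 and Cyp4a14 by 0.90 ± 0.27, and none of them passed.
Acyl-CoA thioesterases, which release fatty acids from coenzyme A, gave 2 increases among 12 tested. Acot3, a peroxisomal form, read 8.0, 6.47 and 7.84 on chow and 9.22, 9.49 and 11.24 on high-fat diet (2.55 ± 0.48, adjusted p = 0.0383), and high-fat mouse 3 lay well above the rest. Acot4 rose by 1.03 ± 0.20 (adjusted p = 0.0449). Acot1, the cytosolic relative in the same cluster, differed by 0.32 ± 0.22. The Acot3 probe set can read related thioesterases, so which of them rose is uncertain.

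Among 23 tested genes of gluconeogenesis, glucose uptake and glycogen, 3 rose and 0 fell, 20 were above 0 and the median was 0.22. An unadjusted p under 0.05 in limma was found for 12 of the 23, all higher, beside 2082 of all 13788 genes tested. Khk, ketohexokinase, which phosphorylates fructose, read 12.23, 12.17 and 12.05 on chow and 12.76, 12.65 and 12.68 on high-fat diet. The change was small but tight, 0.54 ± 0.07 (1.46-fold, adjusted p = 0.00694). Pcx, pyruvate carboxylase, rose by 0.43 ± 0.07 (adjusted p = 0.023), and Gbe1, the glycogen branching enzyme, by 0.56 ± 0.11 (adjusted p = 0.0449). The gluconeogenic genes G6pc and Pck1 did not pass, at 0.00 ± 0.41 and 0.64 ± 0.22.
The 250 bases before the Khk start are shown because they hold the E-box CACGTG, in capitals, 71 bases before the start (RefSeq, GRCm38.p6, 5′ to 3′).
Khk, chr5:30921309-30921558 (plus strand): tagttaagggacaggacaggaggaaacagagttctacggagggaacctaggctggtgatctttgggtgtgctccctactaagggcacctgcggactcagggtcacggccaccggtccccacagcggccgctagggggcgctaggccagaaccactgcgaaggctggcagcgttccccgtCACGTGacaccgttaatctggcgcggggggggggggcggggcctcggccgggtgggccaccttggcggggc
Both strands of the RefSeq windows, 300 bases each, were searched, and 98 of the 124 genes had a window, 134 windows in all. The E-box, which is its own reverse complement, was in 17 of the 134 (12.7%), from 16 genes, against 7.15% of all 32851 windows. Its carriers were 14 windows of genes that rose and 3 of genes that fell, Pcx, Elovl5 and Acot4 among the first. Of the 124 genes themselves, 90 rose and 34 fell. The antioxidant response core TGACNNNGC was in 12.7% of these windows and 12.4% of all, the core GCGTG of the aryl hydrocarbon receptor in 38.1% and 32.4%, and the palindrome TTCNNNGAA of STAT factors in 4.48% and 8.30%. The sterol element TCACNCCAC was in 1.49% and 1.24%, and the direct repeat of AGGTCA with 1 base between in 0 of the 134 and 0.04% of all. A match says that these letters are in the window. The share of all windows was not limited to genes tested on the arrays, so it is not a matched background. The motifs and the windows shown were chosen after the values had been seen, and a variant of the direct repeat and the D-box were searched as well and are not given.

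Heat shock chaperones, which refold damaged proteins, gave 2 increases among 13 tested genes, with 12 above 0 and a median of 0.49. In limma 8 of the 13 had an unadjusted p under 0.05, all higher, beside 2082 of all 13788 genes tested. Hsph1, a large chaperone of the Hsp110 family, read 9.79, 9.55 and 9.20 on chow and 10.99, 10.81 and 10.21 on high-fat diet (1.16 ± 0.23, adjusted p = 0.0449). Cryab, a small heat shock protein, rose by 0.59 ± 0.12 (adjusted p = 0.0449), with 0.29 from another probe set. Hspa1b, an inducible Hsp70, had the widest difference of the list without passing: it read 9.48 in chow mouse 3 and at least 9.95 in the other chow mice, and 12.85, 12.61 and 10.52 on high-fat diet (2.18 ± 0.49, adjusted p = 0.0647). High-fat mouse 3 was the lowest of the high-fat mice, and chow mouse 3 the lowest of the chow mice, for Hsph1, Hspa1b and Dnajb1 alike. Hsph1 was the 1 gene past the threshold whose windows held the heat shock element, GAANNTTC followed after NN by GAA, found in 0.603% of all windows. The shorter GAANNTTC, which the full element contains, was in 5.22% of the 134 windows and 7.86% of all. The match lies 36 bases after the start, and 22 bases around it are shown with the match in capitals, on the strand of the gene.
Hsph1, chr5:149636287-149636308 (minus strand): gctgcagaTTCTGGAAAGTTCt
In the ER stress and amino acid response list, 1 of 23 rose, Atf5, a stress transcription factor (0.92 ± 0.18, adjusted p = 0.0449), and 0 fell. Of the 23, 17 were above 0, with a median of 0.31, and 12 had an unadjusted p under 0.05, 10 of them higher and 2 lower. Among all 13788 genes tested, 2082 had an unadjusted p that low in limma. Creld2 (1.47 ± 0.43, adjusted p = 0.132) and Herpud1 (0.90 ± 0.25, adjusted p = 0.117), genes of the unfolded protein response, did not pass. Asns, asparagine synthetase, read 9.17, 9.62 and 7.46 on chow and 6.83, 7.01 and 6.86 on high-fat diet, a difference of -1.85 ± 0.45 that did not pass (adjusted p = 0.0811).

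Several of the largest changes belonged to none of these lists. Rgs16, a regulator of G protein signalling, read 10.11, 8.88 and 9.06 on chow and 11.93, 12.02 and 10.98 on high-fat diet (2.29 ± 0.41, 4.90-fold, adjusted p = 0.0309), and its other probe sets gave 2.89 and 2.56. Zbtb16, the transcription factor PLZF, rose by 1.96 ± 0.32 (adjusted p = 0.0222), with 0.63 and 2.33 from its other probe sets. Aqp4, a water channel, rose by 1.83 ± 0.38 (adjusted p = 0.0497), but its other probe sets gave 0.92 and -0.01.
Defb1, an antimicrobial defensin, rose by 1.70 ± 0.29 (adjusted p = 0.027), with 0.87 from another probe set. The uncharacterised transcripts 1810053B23Rik and 9030619P08Rik rose by 1.96 ± 0.25 and 1.53 ± 0.26 (adjusted p = 0.00605 and 0.023). Among the genes that fell, Lifr, the receptor of leukaemia inhibitory factor, read 11.65, 11.46 and 11.61 on chow and 10.72, 10.69 and 10.97 on high-fat diet (-0.78 ± 0.12, adjusted p = 0.0127), with -0.27 and 0.14 from its other probe sets. Zfp979, a zinc finger protein gene, fell from 5.91, 5.63 and 5.09 to 4.63, 3.81 and 4.22 (adjusted p = 0.0449), all below the floor on high-fat diet, so its change of -1.32 is read as direction only. Other genes that fell were Zfp810 (-1.07 ± 0.18, adjusted p = 0.027), which encodes another zinc finger protein, Pkdcc (-1.02 ± 0.18, adjusted p = 0.0289, with -0.58 from another probe set), a secreted kinase, and Ctps (-0.89 ± 0.18, adjusted p = 0.0497), CTP synthase. The remaining falls of the 15 largest were Cdk6 (-0.77), a cell cycle kinase, Kdf1 (-0.72), a regulator of keratinocyte differentiation, and Selenbp1 (-0.67), a selenium-binding methanethiol oxidase. Other probe sets gave -0.73 and -0.44 for Cdk6, -0.12 for Kdf1 and -0.45 for Selenbp1. The tested probe sets of Selenbp1 and Pkdcc may read related transcripts. For 64 of the 124 genes another probe set lay above the floor, and in 58 of these every other probe set had the same sign. That count includes values near 0, such as 0.006 ± 0.09 for Vamp4, and 6 genes had an opposite sign. All probe sets were read on the same arrays of the same mice, so they are not separate support. The share among genes that did not pass was not computed.

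Markers of other liver cells were compared because bulk tissue mixes them. In bulk liver, fewer cells of a type and less RNA per cell cannot be told apart. The marker counts below stand beside 2082 of all 13788 genes tested with an unadjusted p under 0.05 in limma. Of 20 tested Kupffer cell and macrophage markers, 0 passed in limma, 12 had an unadjusted p under 0.05, 17 were above 0, and the median was 0.48. Their mean log2 level was 8.46 to 8.59 in the chow mice and 8.83 to 8.93 in the high-fat mice. Clec4f, the defining Kupffer cell lectin, read 9.82, 9.82 and 9.90 on chow and 10.47, 10.46 and 10.35 on high-fat diet (0.57 ± 0.13, adjusted p = 0.0712). Trem2 and Gpnmb, markers of lipid-associated macrophages, differed by -0.04 ± 0.13 and -0.17 ± 0.13. Of 16 sinusoidal endothelial markers, 0 passed and 7 had an unadjusted p under 0.05. Of the 16, 13 were above 0 and their mean level was 8.33 to 8.48 on chow and 8.64 to 8.69 on high-fat diet. Of 22 stellate cell and fibroblast markers, 0 passed and 3 had an unadjusted p under 0.05, with a median of 0.10, and Col1a1 read 5.11 and 4.96, near the floor. Markers of adipocytes, which could come with attached fat, were 4 in number after the filter, of which 0 passed and 1 had an unadjusted p under 0.05. The part of such cells in the changes above was not tested. The 18S control signal was 13.1 to 13.3 on chow and 12.7 to 13.9 on high-fat diet.
No gene of the lists for the clock (21 tested), acute phase (25), complement and coagulation (25), interferon (20), cell division (20), insulin and IGF signalling (23) or oxidative phosphorylation (43) passed in limma. In that order, 2, 4, 8, 1, 3, 5 and 2 of them had an unadjusted p under 0.05. So had 2082 of all 13788 genes tested. Urea cycle and amino acid catabolism gave 1 of 29, Cth, cystathionine gamma-lyase, which fell by -0.44 ± 0.09 (adjusted p = 0.0469).

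The same diet contrast was then read in the penicillin mice, which are other animals and share no array with the control contrast, although the fit pools the spread of all 12. There, 1147 genes passed, 8.32% of those tested. Of the 124 genes of the control mice, 85 passed in the same direction in penicillin mice, 68 of the 90 that rose and 17 of the 34 that fell. The share passing there among all genes was 6.43% for rises and 1.89% for falls. Another 39 did not pass, none passed in the opposite direction, and 120 had the same sign. These 85 are 68.5% of the genes of the control mice and 7.41% of those of the penicillin mice.
The genes were chosen on the control mice, so sizes are given side by side and not compared: Khk (0.54 and 0.53), Pcx (0.43 and 0.44), Klf10 (1.14 and 1.24) and Cyp2b10 (-1.77 and -1.51). Gstm3 changed by -1.71 ± 0.19 in control and -0.18 ± 0.19 in penicillin mice, and Serpina12, a serpin also called vaspin, by 1.03 ± 0.14 and 0.07 ± 0.14. Their difference between the kinds of mouse, tested as an interaction, did not pass (adjusted p = 0.135 and 0.19). The interaction passed in 6 genes (0.0435%), of which 4, Hao2, Slc22a27, Cd36 and Lifr, were among the 124, and in each of the 4 the change was larger in penicillin mice. Klf10 and Serpina12 lie outside the rule for named genes and were chosen after their values were seen.

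**Figure D3:**
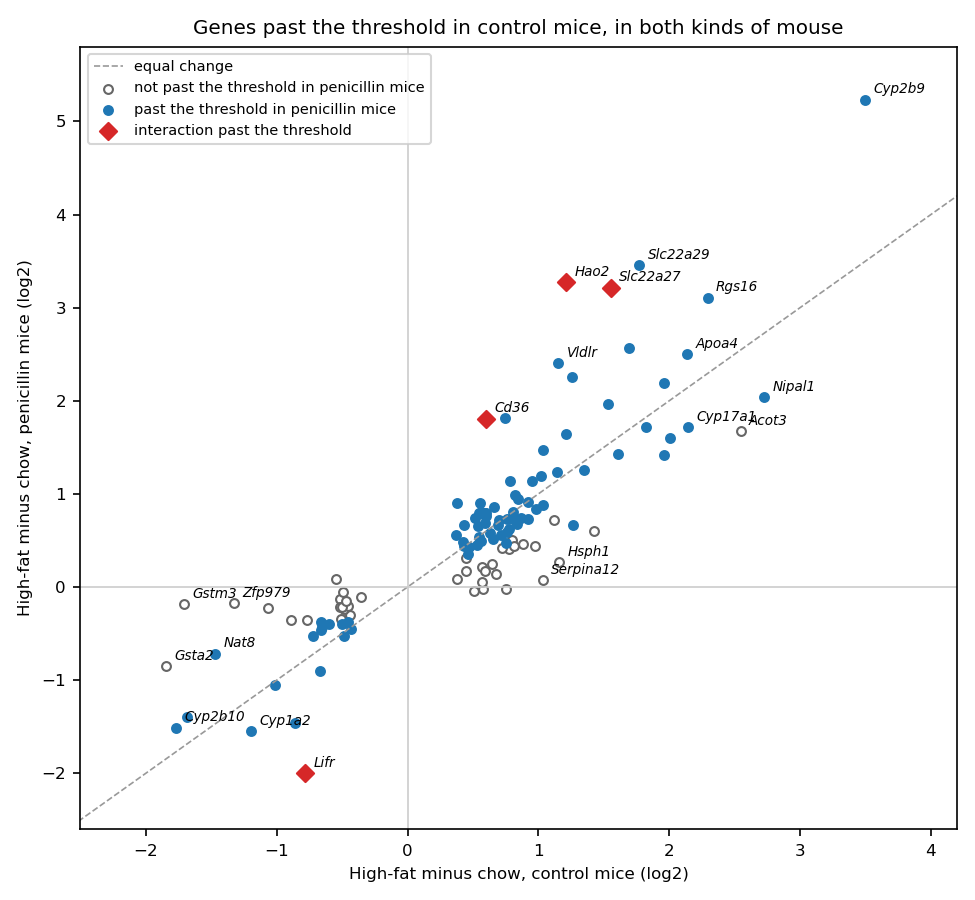
Change on high-fat diet in control mice (horizontal axis) and in penicillin mice (vertical axis), both log2, for the 124 genes past the threshold in control mice, with the dashed line marking equal change. Of these genes, 120 have the same sign on both axes, and red diamonds mark the 4 whose interaction passed.

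**Figure D4:**
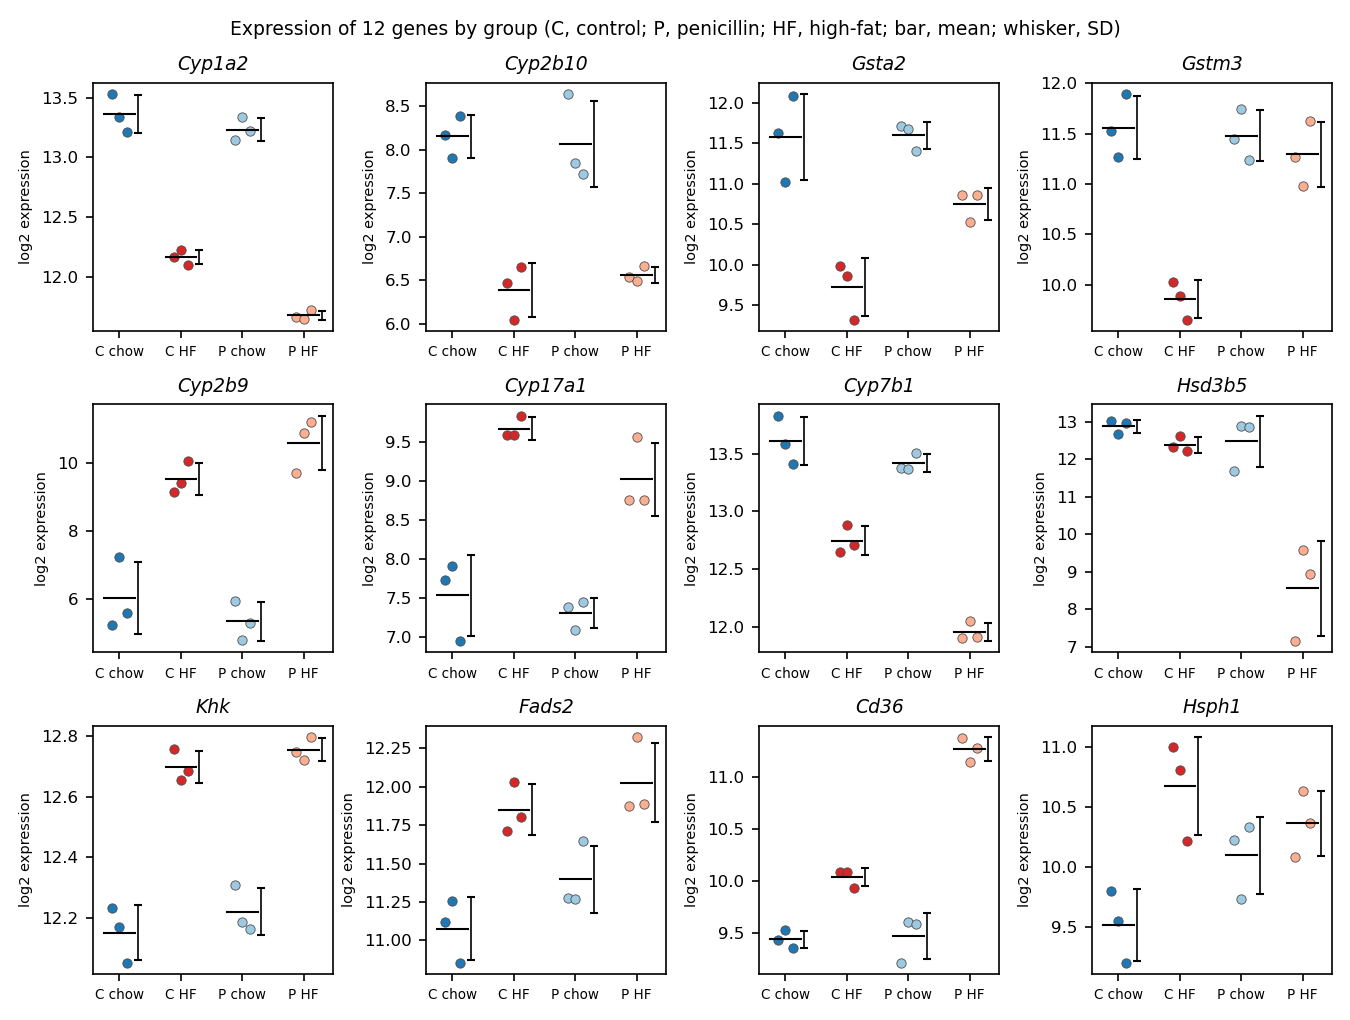
Log2 expression of 12 genes on every array by group, with the mean as a bar and the SD as a whisker (n = 3 mice); each panel has its own scale, which does not start at 0. Cyp1a2 and Khk separate the diets in both kinds of mouse, while Gstm3 is low in the control high-fat mice and Hsd3b5 in the penicillin high-fat mice.

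The count of genes depended strongly on single arrays. Leaving out 1 array at a time gave between 21 and 303 genes past the threshold. It was 26 and 44 without control chow 1 and 2, and 22 and 21 without control high-fat 1 and 2. It was 303 and 69 without penicillin chow 1 and 3, and 78 without penicillin high-fat 3, arrays that enter only through the pooled spread. Without the remaining 5 arrays in turn it lay between 91 and 145.
Whichever array was left out, 17 of the 124 genes still passed, while 50 did so in at least 8 fits and 35 in fewer than 4. The 17 were Cyp1a2, Cyp2b10, Gsta2, Gstm3, Nat8, Cyp7b1, Cyp17a1, Slc22a27, Hao2, Khk, 1810053B23Rik, Klf10, Rcan2, Arsg, Serpina12, Rbm12b1 and Aprt. Of these, Klf10, a zinc finger transcription factor, read 7.88, 8.14 and 7.97 on chow and 9.03, 9.16 and 9.24 on high-fat diet (1.14 ± 0.14, adjusted p = 0.00598). Rcan2, a regulator of calcineurin, rose from between 6.03 and 6.14 to between 6.97 and 7.33 (1.03 ± 0.10, adjusted p = 0.00302). Arsg, a lysosomal sulfatase, rose by 1.02 ± 0.11 (adjusted p = 0.00334). Rbm12b1, an RNA-binding protein gene near the floor on chow, rose by 1.26 ± 0.15 (adjusted p = 0.00501), and Aprt, adenine phosphoribosyltransferase, fell by -0.66 ± 0.09 (adjusted p = 0.00694). Of the lipid genes given above as rises, Apoa4, Vldlr, Mgll, Acot4 and Tm6sf2 passed in 2 of the 12 fits, Acot3 and Fads2 in 3, and Lpin1, Cd36 and Apoc2 in 6. Fads1, Elovl2, Elovl5, Vnn1 and Txnip passed in 8, and Fabp2 in 11. Cyp2b9 and Nipal1 passed in 10. Among the other genes named, Cryab and Cth passed in 2, and Gbe1, Aqp4, Zfp979, Ctps and Cdk6 in 3. Atf5 passed in 4, Hsph1 and Vnn3 in 5 and Selenbp1 in 6. Pcx, Zfp810, Pkdcc, Kdf1 and Galns passed in 7, and Rgs16, Zbtb16, Defb1 and 9030619P08Rik in 8. Cyp2c55 and Lifr passed in 9, and Slc22a29 in 11. Rcan2, Arsg, Rbm12b1 and Aprt also lie outside the rule for named genes.

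**Figure D5:**
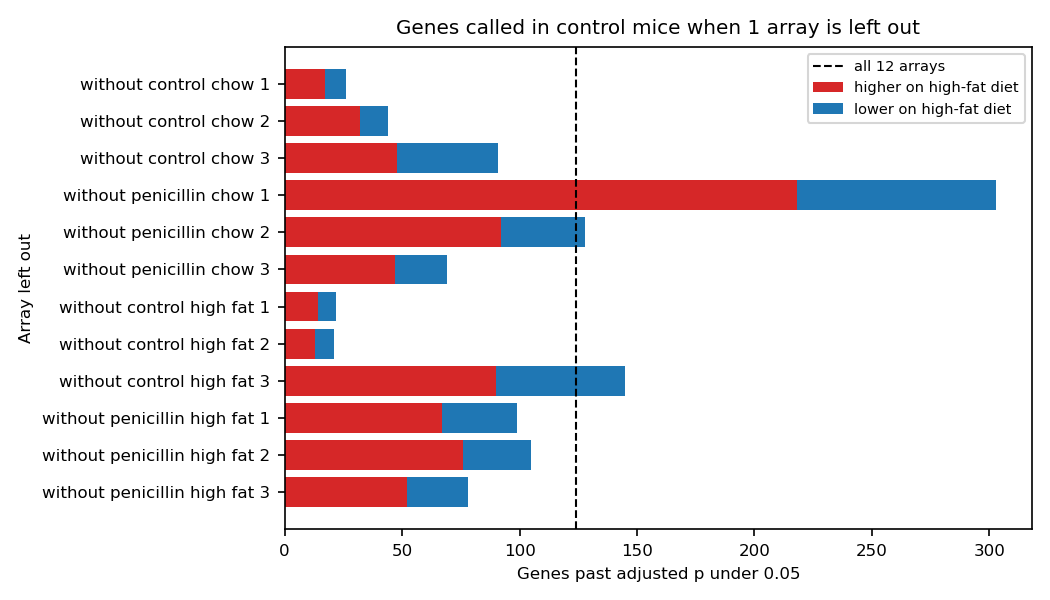
Number of genes past the threshold in control mice when each of the 12 arrays is left out, split into higher (red) and lower (blue) on high-fat diet, with the dashed line at 124 for all arrays. The bars run from 21 without control high-fat 2 to 303 without penicillin chow 1.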

How the data were processed

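Liver RNA of 12 mice was measured on Affymetrix 3′ arrays, 1 array per mouse. The authors deposited 1 table of log2 values for 45101 probe sets, for which the submitters' processing notes name RMA and affy (versions: not given in the sources used here). This step gives every array the same intensity distribution, so changes are relative to the bulk of genes. Probe sets with 1 gene symbol in GEO's platform annotation (34945) were kept, those with several (932), none (9160) or control status (64) were not used here, and each of 18193 genes was read from its brightest probe set by mean over the 12 arrays. RefSeq's GRCm38.p6 table held gene IDs for 34741 of the kept probe sets. A gene was tested if at least 3 arrays exceeded log2 5.0, the 40th percentile of the table, which 13788 genes did.

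The test was limma 3.58.1 in R 4.3.3 with 4 group means on all 12 arrays (8 residual degrees of freedom), eBayes and Benjamini-Hochberg over all 13788 genes. These p-values reflect only how much the sampled mice vary. Precision is limited by the number of arrays, with a median standard error of 0.10. The median SD was 0.108 on chow and 0.102 on high-fat diet. No 2 arrays held identical values. Scan dates and batches were not used here. Genes named were the 15 largest past the threshold in each direction, list members past it, and up to 4 members of each list with the smallest p, whatever their p. Some list members beyond this were named after their values were seen, such as those that define a pathway. The members, the gene lists and the tests were chosen with earlier results of these data known. The code was tested on simulated data. Alternatives covered the filter, the probe set rule, normalization, array weights, the threshold, a replicate block and each array left out.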

Additional observations from a re-analysis of the deposited data

Results flagged for a closer look

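For 6 genes the effect of the diet differed between penicillin and control mice by the test of the difference itself, the interaction in limma with Benjamini-Hochberg adjustment over all genes. Differences below are the change in penicillin mice minus that in control mice (log2, ± standard error, n = 3 mice in each of 4 groups). Hao2 differed by 2.06 ± 0.22 (adjusted p = 0.0114), with a rise of 1.22 in control and 3.27 in penicillin mice. Slc22a27 differed by 1.66 ± 0.24 (adjusted p = 0.0418), with 1.55 and 3.22. Hao2 lay at 4.86 to 5.09 in control chow and 4.25 to 4.64 in penicillin chow mice, and Slc22a27 at 4.43 to 4.96 and 4.94 to 5.13. These values are near or below the floor of log2 5.0, so the sizes of their changes, and of the difference between them, are compressed and read as direction only. Cd36 differed by 1.21 ± 0.15 (adjusted p = 0.0323), with 0.60 and 1.81. Lifr differed by -1.22 ± 0.16 (adjusted p = 0.0323), with -0.78 and -2.00. For these 4 genes both kinds of mouse passed in the same direction.

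Cidea, a lipid droplet protein, and Ifi27l2a, an interferon-stimulated gene, did not pass in control mice. Cidea differed by 3.80 ± 0.53 (adjusted p = 0.0389): it changed by 0.56 ± 0.38 in control mice, where its chow values of 4.48, 5.22 and 5.18 lay near the floor, and by 4.36 ± 0.38 in penicillin mice. Ifi27l2a differed by 0.97 ± 0.13 (adjusted p = 0.0323), with 0.19 ± 0.09 in control and 1.16 ± 0.09 in penicillin mice. An unadjusted interaction p under 0.05 was found for 842 of 13788 genes, where 689.4 would be expected by chance.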

How the results depend on the processing

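The count of 124 genes in control mice was between 92 and 152 with no filter or a stricter one, other probe set rules, median centring, cyclic loess or eBayes with trend and robust variance. With only the 6 control arrays it was 168, of which 80 were among the 124. Array weights gave 571 genes, including all 124. An adjusted p under 0.01 left 19 genes, and one under 0.10 gave 386. Leaving out 1 array gave 21 to 303 genes in control mice, 530 to 1114 in penicillin mice and 0 to 10 for the interaction. The penicillin count was 743 without penicillin chow 3 and 530 without penicillin high-fat 1. For the interaction, array weights gave 15 genes and an adjusted p under 0.01 gave 0. No gene was left for it when the dropped array was penicillin high-fat 1, control chow 2 or penicillin chow 3. Dropping penicillin high-fat 3, or either of control high-fat 1 and 3, left 1 gene. Dropping penicillin chow 1 or 2 left 3 genes, and dropping control chow 3 gave 10. Without control chow 3 the control calls were 48 higher and 43 lower, against 90 and 34. Deviations of same-numbered control chow and control high-fat mice correlated at -0.03, -0.09 and -0.08, and those of differently numbered ones at -0.02 to 0.08. With 3 arrays per group these values cannot decide whether the replicate numbers pair the samples. With the replicate number as a block, 70 genes passed in control mice (63 of them among the 124), 1022 in penicillin mice and 2 for the interaction. No gene past the threshold changed direction under these alternatives. Of the named genes that did not pass, 7 with a change near 0 took the other sign under some, and the cause was not tested. Cux2 was 0.021 with the mean over probe sets, G6pc -0.022 with cyclic loess, and array weights gave -0.062 for Cyp2b13 and 0.0061 for Trem2. With 1 array left out, Ahr ran from -0.35 to 0.15, Cyp2b13 from -0.090 to 0.18, G6pc from -0.29 to 0.55, Nqo1 from -0.14 to 0.023, Plin2 from -0.12 to 0.16 and Trem2 from -0.14 to 0.085. Genes near the floor of log2 5.0 have compressed changes, and 8 genes that rose had at least 1 chow array below it, while Zfp979, which fell, had 3 high-fat arrays below it.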

Other observations

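Of 25 tested complement and coagulation genes, 10 were above 0, against 48.5% of all genes, and the median was -0.04. C6 (-0.70), C8b (-0.66) and C9 (-0.50) had the 3 largest differences downward and did not pass. Of 43 oxidative phosphorylation subunits, 38 were above 0 with a median of 0.05, and of 20 cytosolic ribosomal protein genes 18 were below 0 with a median of -0.07. Of 30 proteasome subunits 0 passed in limma and 4 had an unadjusted p under 0.05, against 2082 of all 13788 genes tested. The same numbers were 0 and 4 of 28 for lysosome and autophagy, and 0 and 4 of 22 for chemokines and cytokines. In the bile acid list, 1 of 23 passed, Cyp7b1, named above. Cyp7a1, the rate-limiting enzyme of the classical pathway, read 11.57, 12.39 and 10.91 on chow and 10.19, 10.81 and 11.59 on high-fat diet, and the groups overlapped.

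Markers of lymphocytes, neutrophils, cholangiocytes, MHC class II cells, pancreatic acinar cells and erythroid cells did not pass. Their mean log2 levels in chow and high-fat mice were 5.54 to 5.69 and 5.47 to 5.65 for T and NK cells (10 tested, median change -0.06), and 6.22 to 7.12 and 6.25 to 6.42 for B and plasma cells (6 tested, -0.27). They were 5.71 to 6.14 and 5.56 to 5.83 for neutrophils (6 tested, -0.17), and 6.11 to 6.21 and 5.86 to 5.99 for cholangiocytes (4 tested, -0.20). They were 8.25 to 8.34 and 8.19 to 8.74 for MHC class II (6 tested, 0.21), and 6.44 to 6.57 and 6.54 to 6.64 for pancreatic acinar cells (6 tested, 0.07). The 1 tested erythroid marker, Alas2, changed by -0.30.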
